A study of Mus musculus with 3 samples.

Results

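The Popeye domain family of the mouse consists of 3 genes, Popdc2, Popdc3 and Bves, the last of which encodes blood vessel epicardial substance, also called POPDC1. They were 3 of the 22350 protein-coding genes of the annotation used here. Every NKX2-5 peak with its midpoint within 100 kb of 1 of the 3 gene bodies was taken, which gave 11 peaks, 3 of the 4418 in the list of the first library and 8 of the 5441 in the list of the other. Overlaps between the lists formed 3 shared regions near these genes, out of 2546 in all. The rule uses position only and no score.

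Hearts of wild-type Parkes mouse embryos at E11.5 were the tissue in every sample, and the fragments bound by the cardiac homeodomain factor NKX2-5 were immunoprecipitated and sequenced (ChIP-seq). NKX2-5 was profiled in duplicate, in the libraries S1 and S4. Genomic DNA without immunoprecipitation made up 1 Input sample, not analysed here. Whole fixed hearts were homogenised, so that the cells within the heart that carried NKX2-5 at a region cannot be told apart. Nothing in the labels says whether S1 and S4 came from separate pools of embryos, and the spread between them may be technical. Each list placed its peaks on mm9 and scored them, with no read numbers, so the depth of the libraries is unknown. The score was read from its values as a measure of the peak caller's p-value, higher where that p-value is smaller, and such a score also rises with depth. The background that the caller used is not given in the sources used here. All 10 of the heart muscle genes examined as markers of the tissue had a shared region within 100 kb of the gene body, against 0 of 12 markers of liver, blood and neurons. Of all protein-coding genes, 24.3% had one. Myh6 and Myh7, both among the heart muscle genes, had the same best region. The markers were chosen with earlier results of these data known, so these counts are a description only.

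Popeye proteins are membrane proteins of heart and skeletal muscle that bind cyclic AMP through a conserved Popeye domain. Loss of Popdc2 or Bves in mice is known to disturb the heart rhythm, with sinus bradycardia under stress. Popdc3 and Bves lie next to each other on 1 chromosome, whereas Popdc2 lies on another.

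On mm9, Popdc2 (ENSMUSG00000022803.6) covers chr16:38362295-38378302 on the plus strand, a body of 16 kb. Popdc3 (ENSMUSG00000019848.7) covers chr10:45009111-45038256 and Bves (ENSMUSG00000071317.3) covers chr10:45055568-45089514, both on the plus strand. The gene before Popdc2 is Cox17, which encodes a copper chaperone of cytochrome c oxidase, and 1 of its annotated transcripts, Cox17-005, runs past the Popdc2 start. Its last exon, chr16:38362185-38362383, spans positions -110 to 88 relative to that start, so the Popdc2 start lies within the untranslated region of a Cox17 transcript.

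The sequence shown here lies under the strongest Popdc2 peak. It is the stretch of 300 bases that ends where the last exon of Cox17-005 begins, chr16:38361885-38362184, plus strand, inside the Popdc2 start region and at -410 to -111 relative to the Popdc2 start. Capitals mark each AAGTG, the core that NKX2-5 recognises, and each TGACA, the core of MEIS1, a homeodomain factor of the TALE class, on either strand, so that CACTT and TGTCA are the same cores read on the minus strand.
Popdc2 start region: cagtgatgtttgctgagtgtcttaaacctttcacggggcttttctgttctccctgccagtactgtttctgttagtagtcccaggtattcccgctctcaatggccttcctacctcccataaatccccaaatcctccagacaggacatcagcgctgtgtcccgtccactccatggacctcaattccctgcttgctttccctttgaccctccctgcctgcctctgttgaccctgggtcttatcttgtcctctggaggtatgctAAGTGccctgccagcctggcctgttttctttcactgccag
This stretch held 1 AAGTG and 0 TGACA, with a GC content of 53.0%. It ends inside a near match to a spaced pair of both cores, at -116 to -108, described below. The other AAGTG cores of the Popdc2 start region lie past the end of the stretch, and the TGACA of the region lies before the stretch.

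The 3 genes differed in how many peaks lay near them. Popdc2 had 2 peaks in S1 and 6 in S4, and 2 shared regions. Popdc3 had 1 peak in each list, and these formed 1 shared region. Bves had 0 peaks in S1 and 1 in S4, and 0 shared regions. The mean over the libraries was 5.5 peaks for the 3 genes together (SD 3.54, n = 2 libraries). With 1 condition in duplicate, no test between groups was possible, and the comparison that the design allows is between the duplicate lists.

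Against all protein-coding genes, most of these counts were common. An S1 peak within 100 kb was found for 2 of the 3 Popeye genes and for 38.4% of all genes, and an S4 peak for 3 of 3 and for 44.7%. A shared region was found for 2 of 3 and for 24.3% of all genes. Popdc2 was the member with counts that few genes had. Its 2 shared regions were matched or exceeded by 6.94% of genes, and its 6 peaks in S4 put it among the 1.86% of genes with at least 5. Those of the 6 with no overlapping S1 peak all scored under 200, near the floor of the list. Popdc2 was also the 1 member with a shared region within 1 kb of a transcript start, which 1.92% of genes had. Popdc3, with 1 shared region, and Bves, with none, were not set apart by their counts.

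**Figure D1:**
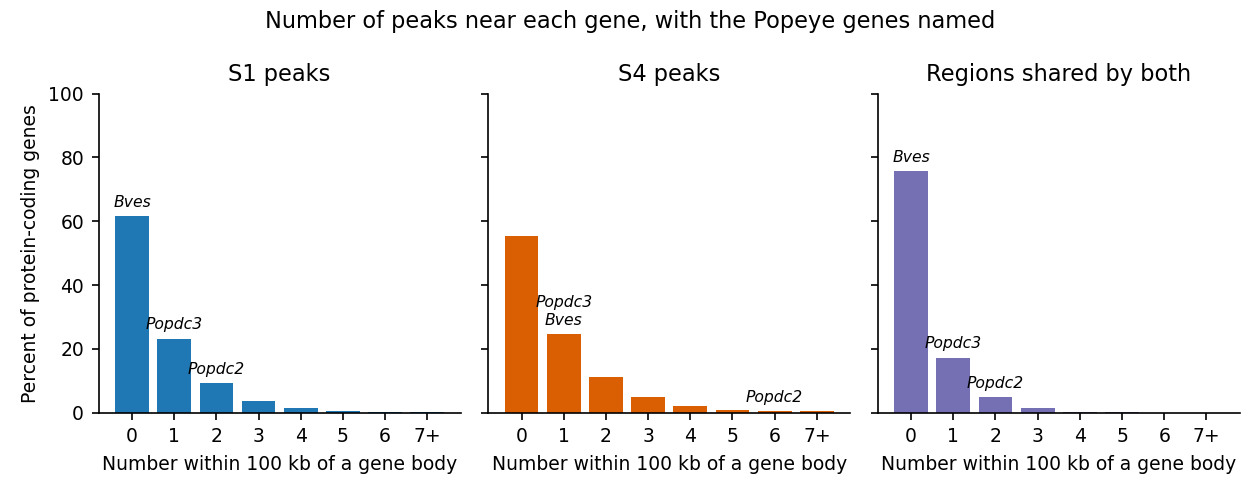
Percent of the 22350 protein-coding genes (y axis) by the number of S1 peaks, S4 peaks or shared regions within 100 kb of the gene body (x axis), with each Popeye gene named above the bar it falls in. Bves sits in the bar of 0 for S1 and for shared regions, and Popdc2 in the thin bar of 6 for S4.

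Popdc2 carried a strong peak over its own start in both libraries. In S1 the peak covered chr16:38361814-38362861, 1048 bp, with a score of 1237 at rank 92 of 4418. In S4 it covered chr16:38361801-38363426, 1626 bp, with a score of 1669 at rank 66 of 5441. The S1 peak thus scored above 97.9% of its list and the S4 peak above 98.8%. Among peaks with the midpoint within 1 kb of a protein-coding start, 849 in S1 and 1124 in S4, the Popdc2 peak scored above 99.4% and 99.5%.

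The left edges of these peaks nearly coincided, and the right edges did not. The S4 peak ran on to 1131 bp past the Popdc2 start, over the whole untranslated part of the first exon and its coding part. The overlap was 100% of the S1 peak and 64.5% of the S4 peak, and the midpoints lay 276 bp apart, farther than in 93.1% of all shared regions, whose median was 78.8 bp. The region is therefore lost as shared when midpoints must lie within 150 bp, and it stays shared when at least 50% of both peaks must overlap. Both scores were matched or exceeded by 43 of the 2546 shared regions (1.69%), this one included. By the worse of its ranks in the lists, 92, it stood among the first 55 shared regions.

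Upstream of Popdc2, both libraries had a further peak, which scored lower than the peak over the Popdc2 start. In S1 it covered chr16:38350182-38351164, 983 bp, with a score of 378 at rank 840, above 81.0% of the list. In S4 it covered chr16:38350432-38351090, 659 bp, with a score of 569 at rank 588, above 89.2% of the list. The midpoint of the S1 peak lay at -11.6 kb from the Popdc2 start. By position the region belonged to Cox17 as much as to Popdc2. It lay within the annotated untranslated region of the transcript Cox17-003, chr16:38349409-38352830, and a start of another Cox17 transcript was the nearest protein-coding start, at 1.29 kb in S1. The peaks alone do not say which gene a region acts on.

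This upstream region differed from most in its widths. The S4 peak lay wholly inside the S1 peak and covered 67.0% of it, a width ratio of S4 to S1 of 0.670. Only 1.77% of all shared regions had a lower ratio, and the median was 1.24. Its S4 peak was narrower than most of its list, with 27.0% of S4 peaks narrower still, whereas 93.3% of S1 peaks were narrower than its S1 peak. Both scores were matched or exceeded in 454 shared regions (17.8%).

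Popdc3 had 1 peak in each list, far upstream and among the strongest. In S1 it covered chr10:44949417-44950250, 834 bp, with a score of 996 at rank 146, above 96.7% of the list. In S4 it covered chr10:44949288-44950618, 1331 bp, with a score of 1741 at rank 62, above 98.9% of the list. This S4 score was above that of the Popdc2 start peak in the same library, while in S1 the order was the reverse. The region was intergenic, with its midpoint at -59.3 kb from the Popdc3 start, which was the nearest protein-coding start. Both scores were matched or exceeded in 46 of 2546 shared regions (1.81%). The S1 peak lay wholly within the S4 peak and covered 62.7% of it.

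**Figure D2:**
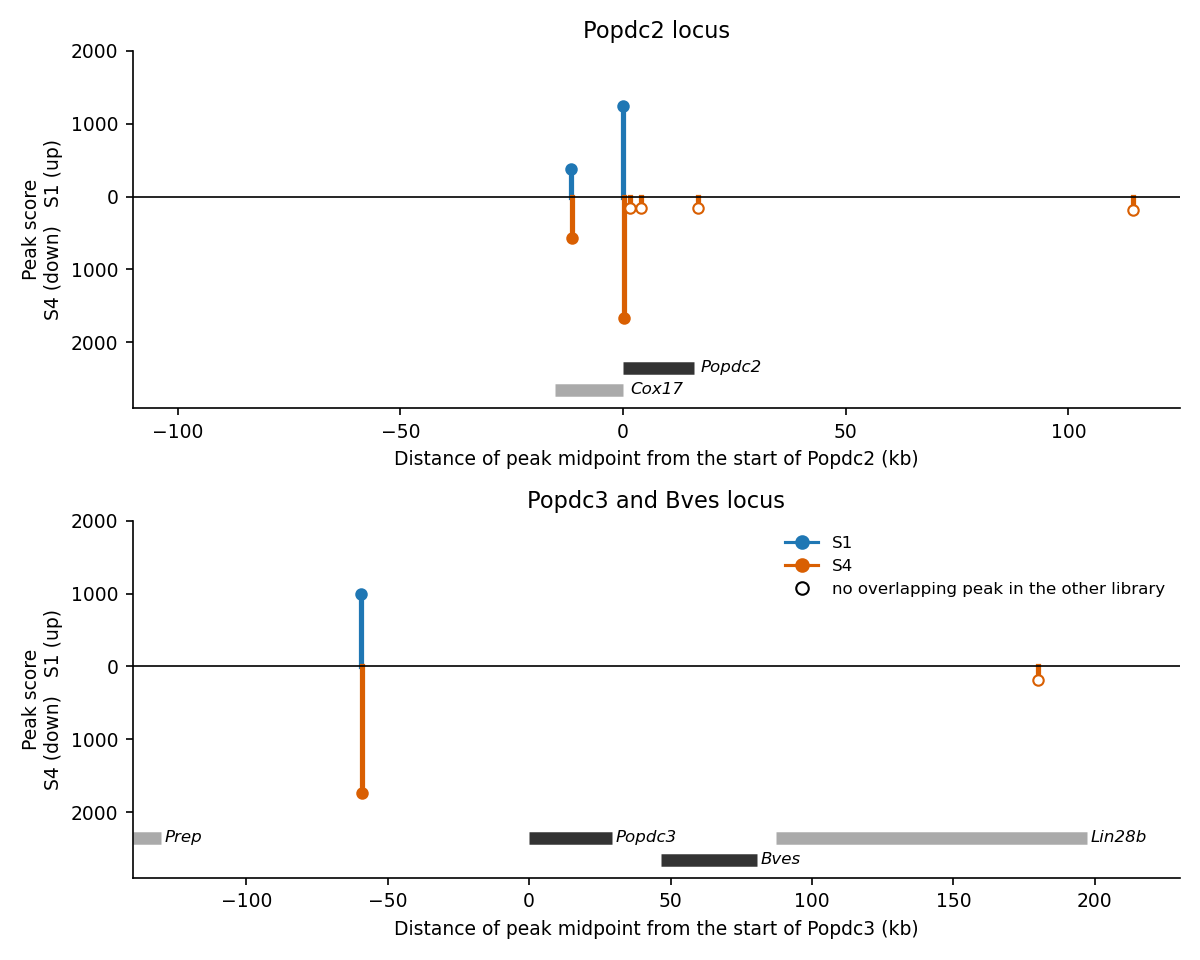
Peaks near the Popeye genes, with the distance of each peak midpoint from the start of Popdc2 (top) or Popdc3 (bottom) in kb on the x axis and the peak score on the y axis, S1 upwards and S4 downwards. Filled points have an overlapping peak in the other library, open points do not, and bars below mark gene bodies (members dark, neighbours grey). The tall pairs stand at the Popdc2 start (1237 and 1669) and at -59.3 kb from Popdc3 (996 and 1741), and the open S4 points all score under 200.

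Bves, which follows Popdc3 on the chromosome, was nearly free of peaks. In S1 no listed peak had its midpoint within 100 kb of its body. In S4 the single peak, chr10:45188749-45189315, 567 bp, had a score of 184, above 34.4% of the list, and no overlapping S1 peak. It lay 99.5 kb past the end of Bves, just inside the limit, in an intron of Lin28b, which encodes an RNA-binding protein that blocks maturation of let-7 microRNAs, and 0.975 kb from a Lin28b start. The strong region upstream of Popdc3 lay 106 kb before the Bves body in both libraries, just outside the limit.

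The stretch without listed peaks that holds Bves was long in 1 library only. In S1 it ran from the Popdc3 upstream peak over 6383 kb to the next peak. Of the 4398 gaps between neighbouring S1 peaks, whose median was 218 kb, 22 (0.50%) were at least as long. In S4 the gap was 238 kb, against a median of 167 kb, and 41.8% of gaps were at least as long. These are shares of gaps and not of genes. A longer gap has more room for genes, so the shares do not say how rare such a gap is around a gene. The S4 gap ended at the weak Lin28b peak, with its score of 184, and the next S4 peak lay 5223 kb past Bves. The difference between the libraries in this gap thus rests on that single peak. A gap in a list does not show that NKX2-5 was absent, since weaker enrichment would not be listed.

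In all, 5 of the 8 S4 peaks near these genes had no overlapping S1 peak, and all scored low. Apart from the Lin28b peak, 4 of them belonged to Popdc2. The first lay at chr16:38363491-38364261 in an intron of Popdc2, 1.58 kb past its start, with a score of 154. It began 64 bp after the end of the S4 peak over the Popdc2 start. The next, chr16:38366049-38366611, lay in an intron 4.04 kb past the start, with a score of 158. A further peak, chr16:38378715-38379311, lay 0.711 kb past the end of the gene, with a score of 151. The farthest, chr16:38476474-38476977, lay 98.4 kb past the gene body in an intron of Cd80, which encodes a T-cell costimulatory ligand, with a score of 180.0.

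These scores were near the floor of the list. The lowest score in either library was 140, and the 5 peaks scored above 11.7% to 34.4% of the S4 list. In S4, 1046 peaks (19.2%) scored under 160, and 211 of them (20.2%) had an S1 partner, as against 47.0% of all S4 peaks. In S1, 938 peaks scored under 160, of which 31.0% had a partner. The counts of 6 and 2 peaks for Popdc2 therefore differed by peaks that all scored under 200, and when peaks under 200 were dropped from both lists each library had 3 peaks near the 3 genes.

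**Figure D3:**
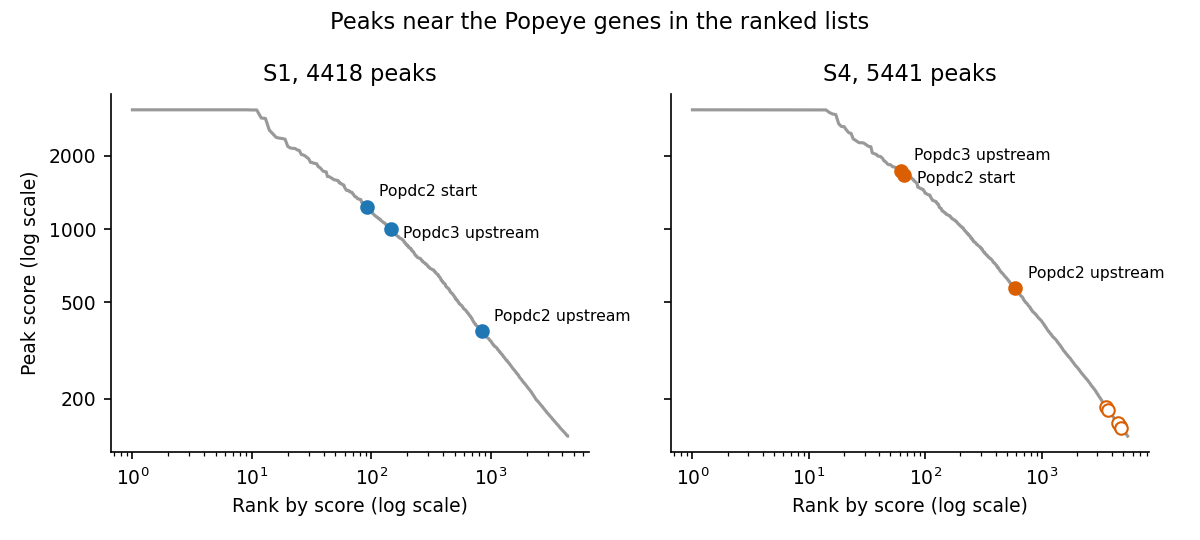
Score of every peak against its rank in S1 (left, 4418 peaks) and S4 (right, 5441 peaks), both axes on a log scale, with the peaks near Popeye genes as points, filled where the other library had an overlapping peak. The Popdc2 start and Popdc3 upstream peaks sit at ranks 92 and 146 in S1 and 66 and 62 in S4, and the 5 open S4 points lie at the low end of the list.

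At each of the 3 shared regions the S4 score was the higher. The ratio of S4 to S1 was 1.75 at the Popdc3 upstream region, 1.51 at the Popdc2 upstream region and 1.35 at the Popdc2 start. On the log2 scale these were 0.81, 0.59 and 0.43, with a median of 0.59. Over all 2546 shared regions the median was 0.16, and the 5th and 95th percentiles were -0.89 and 1.32. The 3 values lay within that range, above 83.3%, 75.1% and 66.9% of regions. A difference in score between S1 and S4 cannot be told apart from their unknown depths.

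**Figure D4:**
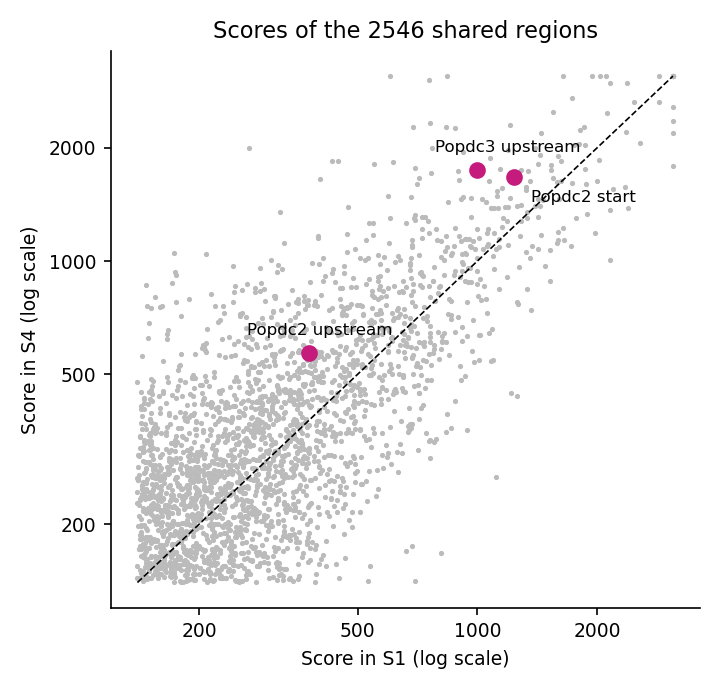
Score in S4 (y axis) against score in S1 (x axis) for the 2546 shared regions, both on a log scale, with the 3 regions near Popeye genes in pink and the dashed line marking equal scores. All 3 lie above the line, and the Popdc2 start and Popdc3 upstream regions lie near the top of the cloud.

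Beyond the limit of 100 kb, the loci were unevenly surrounded. Before Popdc2 the nearest S1 peak was 225 kb away, with a score of 285, near Gsk3b, which encodes a kinase of the Wnt pathway, and the nearest S4 peak was 605 kb away, with a score of 242, near Fstl1, which encodes a secreted follistatin-like protein. After Popdc2 the nearest S1 peak was 185 kb away near Tmem39a, with a score of 163, and the nearest S4 peak was 246 kb away, with a score of 357 and an S1 partner. It was the first of 4 shared regions at 262, 291, 310.4 and 351 kb past the Popdc2 start, the last of them at -0.221 kb from a start of Arhgap31, which encodes a GTPase-activating protein. Before Popdc3, a shared region that scored 192 in S1 and 490.4 in S4 lay 399 kb away, nearest to Gm4795. After Bves, the next S1 peak beyond the limit was 6244 kb away, near Gprc6a, which encodes a G-protein-coupled receptor, and the next S4 peak was 5223 kb away, near Ascc3, which encodes a DNA helicase subunit.

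The cores of NKX2-5 and of other cardiac factors were searched as exact matches on both strands in the stretch covered by both peaks of each shared region. The letters were AAGTG and the longer TNAAGTG for NKX2-5, TGACA for MEIS1 and AAGTGACA for both cores sharing the bases TG. A spaced pair was GTGNTGACA, in which the end of an NKX2-5 core stands 1 base before a MEIS1 core. AGATAA stood for GATA factors, AGGTGT for T-box factors and CATTCC for TEAD factors. Every TNAAGTG also counts as AAGTG, and every AAGTGACA and GTGNTGACA also counts as TGACA. Positions are counted from 0 at the annotated Popdc2 or Popdc3 start. A match describes the sequence and does not by itself show binding.

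The NKX2-5 core was found in all 3 regions, as it was in 89.9% of all shared stretches, so its presence does not set them apart. The Popdc3 upstream region held 5 AAGTG in 834 bp, or 6.0 per kb, the Popdc2 start region held 3 in 1048 bp, or 2.86 per kb, and the Popdc2 upstream region held 1 in 659 bp, or 1.52 per kb. Over all shared stretches the density was 3.74 per kb. TNAAGTG, found in 54.7% of stretches, occurred 3 times at the Popdc3 region, 1 time at the Popdc2 start and 0 times at the Popdc2 upstream region. Within 200 bp around the midpoint of the stretch, where 63.8% of all regions held AAGTG, the Popdc2 start and Popdc3 upstream regions held it and the Popdc2 upstream region did not.

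The 3 NKX2-5 cores at the Popdc2 start lay on the plus strand, before and after the start, at chr16:38362145-38362149, chr16:38362275-38362279 and chr16:38362574-38362578. They are shown with their flanks, the core in capitals, because they are the cores under the strongest Popdc2 peak.
Popdc2, -150 to -146: gaggtatgctAAGTGccctgccagc
Popdc2, -20 to -16: aatggaacacAAGTGtgcttcccct
Popdc2, 279 to 283: agcttccatgAAGTGtactatgctc
The first of them is the core marked in the longer Popdc2 sequence given above. The second lay 60 bp from the centre of the overlap of both peaks and was the nearest to it, and a CATTCC lay upstream of it at -37 to -32. The third lay in the first exon of Popdc2, before the coding sequence. The only TGACA of the region lay at its upstream edge, at -479 to -475, and the only AGATAA at -175 to -170.

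The promoter sequence of Popdc2 in RefSeq (build GRCm38.p6, 300 bases around the start) was found letter for letter on mm9, with its start at -19 relative to the GENCODE start. It held 2 AAGTG and 0 TGACA. Of 32851 RefSeq promoters, 46.4% held AAGTG and 45.4% held TGACA. The promoters of Popdc3 and Bves were not analysed here.

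The MEIS1 core ranked the regions in another order than the NKX2-5 core. The Popdc2 upstream region held 4 TGACA, or 6.07 per kb, the Popdc3 upstream region held 2, or 2.40 per kb, and the Popdc2 start region held 1, or 0.954 per kb. Over all shared stretches, 86.8% held the core, at 3.95 per kb. In the Popdc2 upstream region its single NKX2-5 core, chr16:38350920-38350924 on the minus strand, adjoined a TGACA on the same strand, chr16:38350925-38350929, and another TGACA lay close by on the plus strand, chr16:38350934-38350938. How many of all shared stretches hold adjoining cores was not counted, so the cluster is a description only. The cluster is shown in both frames because it brings the cores of both factors side by side. Capitals mark first the NKX2-5 core and then the adjoining MEIS1 core.
Popdc2, -11375 to -11371: agaccagaggCACTTtgtcactcct
Popdc2, -11370 to -11366: agaggcacttTGTCActcctgacag

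The overlapping pair AAGTGACA, which 5.26% of all shared stretches held, occurred 1 time, in the Popdc3 upstream region at chr10:44949637-44949644, 193 bp from the midpoint of the stretch. Of the motifs found in these regions it was the one that the fewest shared stretches held. It was also the longest of them, so its low share does not by itself set the region apart.
Popdc3, -59474 to -59467: tttatttaAAGTGACAcaattatca

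The spaced pair GTGNTGACA was not found in any of the 3 shared stretches and was found in 15.4% of all of them. The closest match at the Popdc2 start differed from it by 1 base, on the minus strand at chr16:38362179-38362187, at -116 to -108. The Popdc2 upstream region had 2 positions with 1 mismatch, and the closest match at the Popdc3 upstream region had 2 mismatches. Positions with at most 1 mismatch were found in 69.2% of all shared stretches, so such a match is common. The matched bases at the Popdc2 start and the plus-strand match of the Popdc2 upstream region, chr16:38350881-38350889, are in capitals.
Popdc2, -116 to -108: tctttcacTGCCAGCACctcctgga
Popdc2, -11414 to -11406: gaagggtaGTGGTGGCAttaaatga

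An exact spaced pair did occur in a weak peak near Popdc2 that S1 lacked. It lay in the intron peak that follows the Popdc2 start peak in S4 (score 154), at chr16:38363780-38363788 on the plus strand, 1485 to 1493 bp past the start and 92 bp from the midpoint of the peak. Of the 2886 S4 peaks with no S1 partner, 8.80% held an exact spaced pair.
Popdc2, 1485 to 1493: tagcccatGTGCTGACAgctgcaga
The same peak held 1 AAGTG and 2 TGACA. Among the 5 unpartnered S4 peaks near Popeye genes, each held at least 1 AAGTG, as did 89.3% of all such S4 peaks, and 3 held TGACA, as did 85.2%. None of the 5 held AAGTGACA.

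GATA and TEAD cores were found in the Popdc2 regions and not in the Popdc3 region. AGATAA occurred 1 time in each Popdc2 region and in 39.0% of all stretches. CATTCC occurred 2 times at the Popdc2 start and 1 time in the upstream region, and in 37.4% of all stretches. AGGTGT was in none of the 3, and in 33.2% of all. The GC content of the 200 bp around the midpoint was 51.5% at the Popdc2 start, 49.0% at the Popdc2 upstream region and 44.5% at the Popdc3 upstream region, all between the 5th and 95th percentiles of all shared regions, 40.5% and 61.0%.

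**Figure D5:**
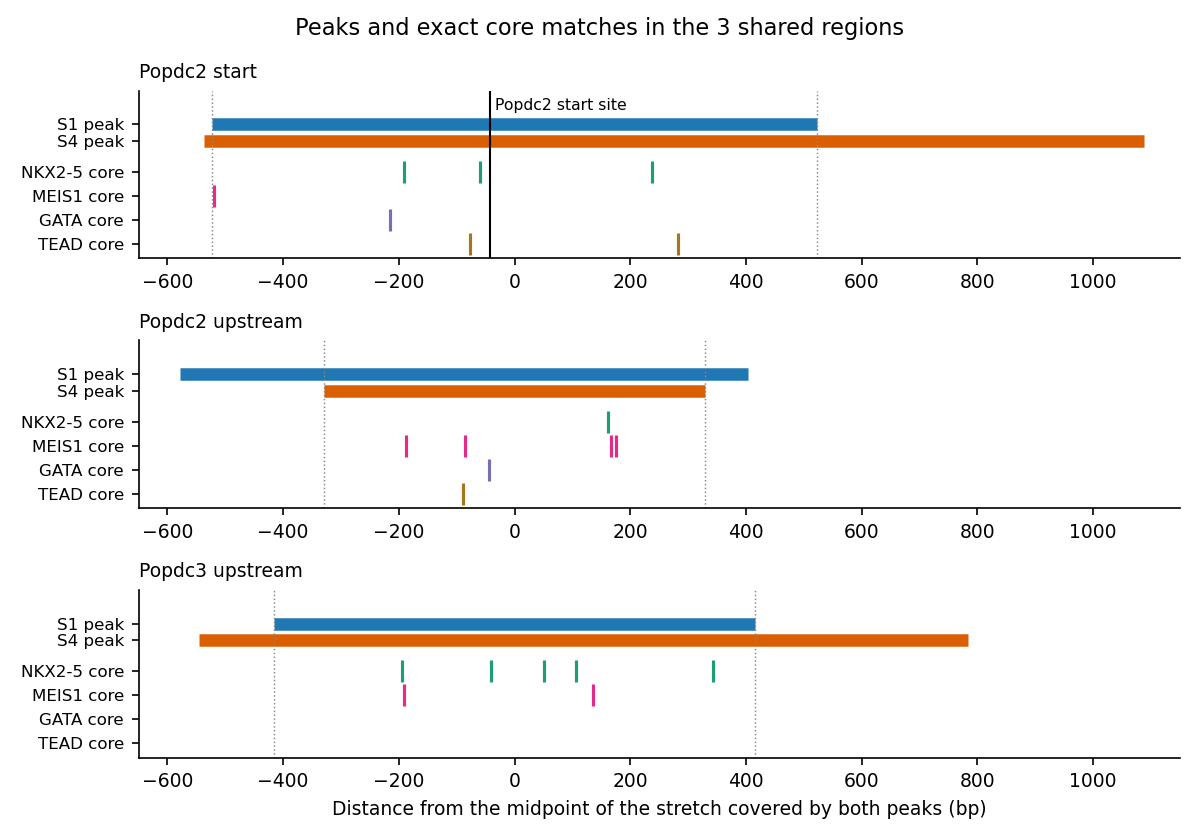
Peaks of S1 and S4 (bars) and exact core matches on either strand (ticks) at the 3 shared regions, by distance in bp from the centre of their overlap, whose ends are dotted. NKX2-5 cores number 3, 1 and 5 from top to bottom and MEIS1 cores 1, 4 and 2, and the S4 bar at the Popdc2 start runs on past the right end of the S1 bar.

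Genes of proteins that act with Popeye proteins or respond to cyclic AMP were counted in the same way. Of 8 genes of Popeye partners, 6 (75.0%) had a shared region within 100 kb, and of 12 genes of other cyclic AMP effectors, 6 (50%) did, together 12 of 20 (60.0%), beside 24.3% of all protein-coding genes. Both lists were drawn up with earlier results of these data known, and heart genes as a class were not set against them, so the count is a description only. An S1 peak was near 15 of the 20 genes and an S4 peak near 17.

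Those with the highest lower score had values below those of the strong Popeye regions. Hcn4, the main pacemaker channel gated by cyclic AMP, had 2 shared regions, the best scoring 467 in S1 and 516 in S4 at -20.5 kb from its start. Ndrg4, from the list of Popeye partners, had 1 region with 567 and 449.6 at -80.0 kb. Rapgef3, which encodes the cyclic AMP sensor EPAC1, had 2 shared regions, the best with 508 and 440.1 at -97.2 kb.
Adcy9, which encodes an adenylyl cyclase, scored 353 in S1 and 365 in S4 at 1.63 kb past its start. Cav3, the caveolin of muscle, had 298 and 424 at 48.3 kb past its start. Of these 5 genes, Adcy9 had its best region near the start, as at Popdc2, while those of the other 4 lay farther off, as at Popdc3. Lower values were found for Vamp3, Pde4a, Kcnk2, Prkar1a, Prkacb and Hcn3, and 8 of the 20 genes had no shared region.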

How the data were processed

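Per the labels and the methods of the study, ChIP-seq reads were mapped with Bowtie on mm9 and MACS called the peaks, and the submitters' processing notes also name CASAVA 1.4. Tool settings and whether the Input served as control are not given in the sources used here. Separate lists for S1 and S4 were deposited, with no pooling. The score in the deposited lists was read from its values as the negative log10 of the caller's p-value multiplied by 10, and no scaling between libraries is stated. The deposited peak positions were counted from 0 at the start and are given here counted from 1. Replicates had no read numbers, so depth and the precision of a score are unknown. The Input library was not analysed here.

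Gene bodies and transcripts were those of GENCODE M1 on mm9, and all peaks lay within the chromosome lengths of mm9. Peaks overlapping by at least 1 bp were partners, and overlaps were merged into shared regions. Percentages over genes refer to protein-coding genes of chromosomes 1 to 19 and X. Motifs were exact matches on both strands in 200 bp around the midpoint or in the whole stretch covered by both peaks. No p-value was computed, since there was 1 condition in duplicate. The genes named are the members, those with the start nearest to a member peak, the 6 listed partner or cyclic AMP genes with the highest lower score, of which 1 is not reported here, and those nearest to the first peaks beyond 100 kb. Single motif sites and the intron peak with the spaced pair were picked after their values were seen. The members and lists were chosen with earlier results of these data known. Alternatives were limits of 50 and 200 kb, distances to transcript starts or peak edges, a score of at least 200, merging of peaks within 1 kb, stricter overlaps, leaving out each library, peak width in place of score, promoter peaks only, and other motif windows. The steps were tested on simulated data. Python 3.11.15, numpy 2.4.6, pandas 2.3.3 and matplotlib 3.10.9 were used.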

Additional observations from a re-analysis of the deposited data

How the results depend on the processing

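The mean of 5.5 peaks near the Popeye genes ranged from 3 to 8 with 1 library left out, and was 3.50 at 50 kb and 3.0 with a score of at least 200, where each library had 3. With peaks within 1 kb merged the mean was 5.0, from 3 in S1 and 7 in S4. The 3 shared regions became 2 at 50 kb (without Popdc3) and with midpoints within 150 bp (without the Popdc2 start), and were 3 under the other settings. The share of all genes with a shared region, 24.3%, was 15.7% at 50 kb, 37.7% at 200 kb, 22.4% by transcript starts, 15.7% with a score of at least 200, 22.4% with an overlap of 50% of both peaks and 19.6% with midpoints within 150 bp. The mean percent of peaks scoring below the Popdc2 start peak, 98.4%, was 97.9% to 98.8% with 1 library left out, 97.0% with a score of at least 200, 99.4% among promoter peaks and 96.8% by width. Within 50 bp of the midpoint 1 of the 3 regions held AAGTG, against 2 within 100 bp. TGACA was held by 0 regions within 50 bp, 1 within 100 bp and 3 over the whole stretch. The 12 partner and cyclic AMP genes ranged from 10 to 14, and the median log2 score ratio from 0.59 to 0.70. No paired analysis was possible because there was 1 condition, and its result comes from no test.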
